A study of Homo sapiens with 9 samples.

Results

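The zinc finger genes of human chromosome 19 were followed in maps of RNA polymerase II from HEK293T cells, an established line derived from human embryonic kidney. Genes entered by a rule on name and place alone. They were protein-coding genes of GENCODE version 44 on chromosome 19 whose symbol is ZNF followed by a number and at most 1 letter. This set of genes was chosen with earlier results of these data known. The rule gave 246 genes, out of 1476 protein-coding genes of the chromosome and 20046 of the genome. POLR2A, the largest subunit of the polymerase, had been mapped by ChIP-seq, the sequencing of DNA pulled down with a protein, in cells given a control shRNA, labelled wildtype for genotype, in cells with knockdown of U2AF1 and in cells with knockdown of DHX9. U2AF1 is the small subunit of the splicing factor that recognises the 3′ splice site, and DHX9 is a helicase that unwinds RNA and RNA and DNA hybrids. For each condition there were 2 ChIP replicates and 1 input of chromatin taken before the immunoprecipitation, in the same cell line and the same culture medium. The labels do not say whether the 2 replicates came from separate cultures, which shRNA sequences were used or how far each target was reduced.

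A single list of peaks stood for each condition: 2757 peaks for the control, 1730 for the U2AF1 knockdown and 4443 for the DHX9 knockdown. Peaks in the control list bear names with an ending that can be read as replicate 1, so whether that list rests on 1 library or 2 is not known. No value below therefore has a replicate error, no difference between lists could be tested against the spread between replicates, and the read depth of the libraries is unknown. The interval given after a share is a 95% Wilson interval, which covers counting error only. Genes of a family that share sequence and neighbours are not independent replicates of a condition.

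C2H2 zinc finger proteins bind DNA through arrays of short modules, each folded around a zinc ion, and the array sets which sequence is bound. Many of those encoded on chromosome 19 also carry a KRAB domain, which recruits the co-repressor TRIM28 and, through it, SETDB1 and HP1 proteins that lay down and read H3K9 trimethylation, and many act on transposable elements. The genes arose by repeated tandem duplication and lie in clusters, and the bodies and 3′ ends of many of them carry the same repressive mark in cultured cells.

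The translated coding sequences matched the name. Each of the 246 genes encoded at least 1 finger of the pattern C-x(2,4)-C-x(12)-H-x(3,5)-H, with a median of 12 fingers and a range of 1 to 36. A KRAB-like motif was found in 210 of them (85.4%). Neighbouring genes whose starts lay within 500 kb of each other were joined into clusters. The 10 clusters of at least 5 genes held 232 of the genes and are numbered 1 to 10 from the short-arm end of the chromosome, and 14 genes lay outside them.

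Peaks were detected at the starts of 26 of the 246 genes in at least 1 list, and the 250 bases before the RefSeq start of 7 of them are printed to show the kind of promoter at which polymerase was found. The first 3 had a peak in the control and DHX9 knockdown lists, the next in the control list alone, the next in both knockdown lists, and the last 2 in the DHX9 knockdown list alone. They are examples, picked after the peaks were seen, from genes where a summit lay within 300 bp of the RefSeq start and at most 30 of the bases printed were exonic. Sequences are from RefSeq (GRCh38.p14), read 5′ to 3′ on the strand of the gene. Capitals mark short motifs on either strand: the CCAAT box, the GC box (GGGCGG), an ETS factor motif (CCGGAAG) and the core of the motif bound by the activator ZNF143 (ACTACAATT).
ZNF627 (chr19:11597233-11597482, plus strand): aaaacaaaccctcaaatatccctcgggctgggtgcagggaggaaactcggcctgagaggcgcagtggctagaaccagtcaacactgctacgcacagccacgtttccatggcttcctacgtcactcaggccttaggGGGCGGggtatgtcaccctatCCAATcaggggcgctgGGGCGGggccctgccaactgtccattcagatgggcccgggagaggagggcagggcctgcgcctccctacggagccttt
ZNF428 (chr19:43619630-43619879, minus strand): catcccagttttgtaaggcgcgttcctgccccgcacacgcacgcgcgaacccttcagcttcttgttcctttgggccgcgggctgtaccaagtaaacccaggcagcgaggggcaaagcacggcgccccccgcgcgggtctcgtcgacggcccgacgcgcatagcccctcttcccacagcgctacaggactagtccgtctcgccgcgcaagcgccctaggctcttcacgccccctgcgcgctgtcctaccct
ZNF180 (chr19:44500523-44500772, minus strand): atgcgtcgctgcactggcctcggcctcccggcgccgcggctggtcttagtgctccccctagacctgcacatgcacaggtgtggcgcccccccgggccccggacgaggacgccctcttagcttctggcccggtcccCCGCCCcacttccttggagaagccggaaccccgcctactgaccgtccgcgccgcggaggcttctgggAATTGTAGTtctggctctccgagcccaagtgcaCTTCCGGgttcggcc
ZNF460 (chr19:57279732-57279981, plus strand): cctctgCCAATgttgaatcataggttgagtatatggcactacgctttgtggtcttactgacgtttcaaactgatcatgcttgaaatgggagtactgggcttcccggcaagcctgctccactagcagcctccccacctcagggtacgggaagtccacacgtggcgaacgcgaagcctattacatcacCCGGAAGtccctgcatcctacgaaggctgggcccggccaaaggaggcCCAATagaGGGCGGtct
ZNF837 (chr19:58381031-58381280, minus strand): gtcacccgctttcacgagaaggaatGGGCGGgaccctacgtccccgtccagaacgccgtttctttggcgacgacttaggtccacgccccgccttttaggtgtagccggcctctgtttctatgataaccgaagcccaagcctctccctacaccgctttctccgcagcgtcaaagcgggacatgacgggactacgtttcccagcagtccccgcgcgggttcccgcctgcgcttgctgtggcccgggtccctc
ZNF773 (chr19:57499688-57499937, plus strand): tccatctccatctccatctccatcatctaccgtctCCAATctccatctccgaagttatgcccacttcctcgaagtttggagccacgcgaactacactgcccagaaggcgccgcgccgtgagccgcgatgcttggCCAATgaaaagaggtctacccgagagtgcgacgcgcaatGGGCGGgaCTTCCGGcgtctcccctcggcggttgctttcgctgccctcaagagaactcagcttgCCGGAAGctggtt
ZNF324 (chr19:58466830-58467079, plus strand): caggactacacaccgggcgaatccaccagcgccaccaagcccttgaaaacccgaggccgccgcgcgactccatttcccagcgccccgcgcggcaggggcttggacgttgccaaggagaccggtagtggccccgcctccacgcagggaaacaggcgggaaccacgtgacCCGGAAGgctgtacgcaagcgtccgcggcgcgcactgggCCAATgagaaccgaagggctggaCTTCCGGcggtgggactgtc

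These promoters are rich in CpG, with CpG observed over expected of at least 0.77 in all 7, counted over 500 bp each side of the start of the canonical transcript. Motifs differ among them. The ZNF627 stretch holds a CCAAT box and 2 GC boxes and no ETS motif, ZNF428 holds none of the 4, and ZNF773 and ZNF324 hold 2 ETS motifs each. A match is a description of the letters and not evidence that a factor binds.

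Few of the genes had detected polymerase at their start in any list. A peak was assigned to a start when its summit, the position of its highest signal, lay at most 1000 bp from an annotated start of one of its transcripts. By this rule 8 of 246 genes (3.25%, 1.66 to 6.28) had a start-site peak under the control shRNA, 1 (0.407%, 0.0718 to 2.27) under U2AF1 knockdown and 24 (9.76%, 6.64 to 14.1) under DHX9 knockdown. The background over all protein-coding genes was 12.6% under the control shRNA, 6.64% under U2AF1 knockdown and 21.0% under DHX9 knockdown. In the same order, the share over all protein-coding genes was 3.88, 16.3 and 2.15 times that of the ZNF genes. The 16.3 rests on a single gene. In every list the Wilson interval of the ZNF genes ended below the background.

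Other genes of the chromosome and ZNF genes of other chromosomes, measured in the same lists, had higher shares. Among the 1230 other protein-coding genes of chromosome 19, 108 (8.78%) had a start-site peak under the control shRNA, 63 (5.12%) under U2AF1 knockdown and 181 (14.7%) under DHX9 knockdown. Under DHX9 knockdown their interval (12.8 to 16.8) overlapped that of the chromosome 19 ZNF genes (6.64 to 14.1), and in the other lists the intervals did not overlap. Among the 262 genes of the same name pattern on other chromosomes the counts were 34 (13.0%), 20 (7.63%) and 76 (29.0%). ZNF genes elsewhere in the genome thus had start-site peaks 3.99, 18.8 and 2.97 times as often as those of chromosome 19, in the same order of lists. No peak of any list lay at the start of the 23 other zinc finger genes of chromosome 19, named ZSCAN, ZFP, ZIM, ZIK, ZBTB, MZF, PEG3 or with another form of ZNF symbol (0 of 23, which allows a share of up to 13.0%). The 23 are part of the 1230. Among them ZNF559-ZNF177, ZNF625-ZNF20 and ZNF816-ZNF321P overlap ZNF genes already counted among the 246, so they are not separate from those. All these differences compare genes within a list.

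**Figure D1:**
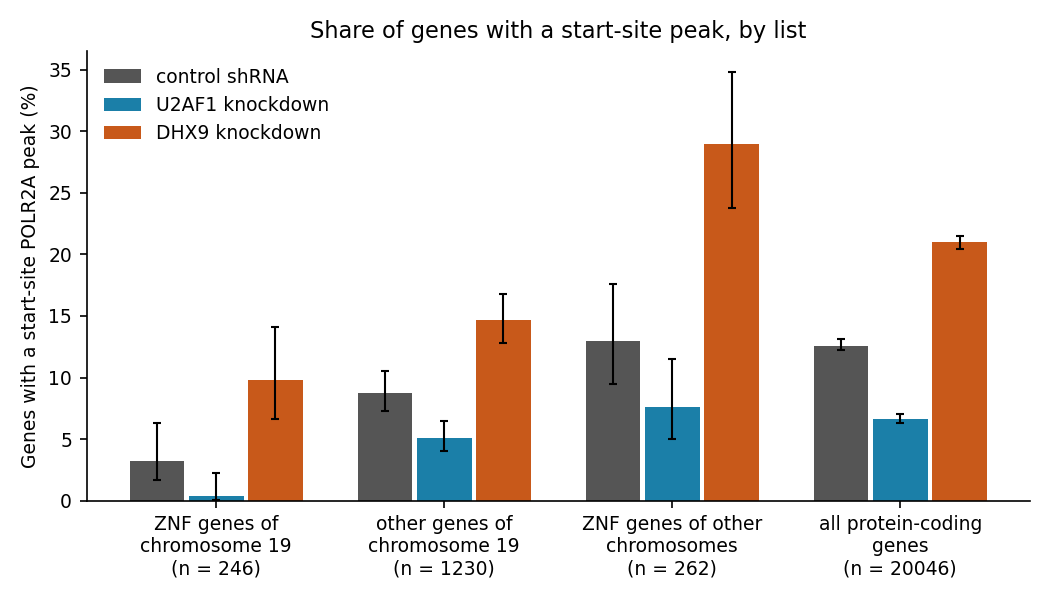
Percentage of genes with a start-site POLR2A peak (vertical axis) in 4 groups of genes, with a bar for each of the 3 lists; error bars are 95% Wilson intervals and cover counting error only. The ZNF genes of chromosome 19 have the lowest bar in each list (3.25%, 0.407% and 9.76%), and the ZNF genes of other chromosomes the highest (13.0%, 7.63% and 29.0%).

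Almost all detected peaks lay at starts. Counting a summit anywhere in the gene as well, 8 genes (3.25%) had a peak under the control shRNA, 2 (0.813%, 0.223 to 2.92) under U2AF1 knockdown and 25 (10.2%, 6.98 to 14.6) under DHX9 knockdown, against backgrounds of 13.2%, 7.34% and 22.2%. The additional gene in the U2AF1 knockdown list was ZNF536, a gene with a part in neuronal differentiation, whose peak lay in an intron 67569 bp from the nearest start at percentile 47.4 of the list. The additional gene in the DHX9 knockdown list was ZNF586, whose 3′ end overlaps the start of ZNF587B, and the peak was the same one that was assigned to ZNF587B. The threshold of 1000 bp separated the genes widely. The farthest summit inside it and the nearest outside it were at 250 bp (ZNF180) and 14930 bp (ZNF497) under the control shRNA, at 256 bp (ZNF837) and 10818 bp (ZNF875) under U2AF1 knockdown, and at 426 bp (ZNF574) and 2658 bp (ZNF296) under DHX9 knockdown. The median distance from a ZNF gene to the nearest summit was 413 kb under the control shRNA, 571 kb under U2AF1 knockdown and 264 kb under DHX9 knockdown, and 112, 240.3 and 61.4 kb for the other genes of the chromosome.

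Each knockdown was set beside the control to see at which of the genes polymerase was still detected, and at which it was newly detected. The U2AF1 knockdown list held 0 of the 8 ZNF genes of the control list. Limits given for a share of 0 are 3 counts divided by the number of genes. Here that is 37.5%, which is rough and too high for so few genes. Among all protein-coding genes with a control peak, 35.4% also had one in the U2AF1 knockdown list. So rough a limit cannot decide whether the share of ZNF genes was lower. Of the 238 ZNF genes without a control peak, 1 (0.420%) had one in the U2AF1 knockdown list, ZNF837, against a background of 2.50%. The share in the U2AF1 knockdown list minus that in the control list was -2.85 percentage points, and over all protein-coding genes it was -5.96 points.

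The DHX9 knockdown list held 6 of the 8 control genes (75.0%) and the background was 75.5%, so the share of ZNF genes was close to it. It held 18 of the 238 ZNF genes without a control peak (7.56%), against a background of 13.1%. The share rose by 6.50 percentage points from the control to the DHX9 knockdown list, and by 8.35 points over all protein-coding genes. As a ratio, the DHX9 knockdown share was 3.00 times the control share for ZNF genes and 1.66 times for all protein-coding genes. The U2AF1 knockdown share was 0.125 times the control share for ZNF genes and 0.527 times for all. Points and ratios thus order the ZNF genes and all genes differently, and with 8 control genes the ratios are loose. Both knockdown lists were compared with the same control list. With the lists cut to their 1730 most significant peaks each, 4 ZNF genes (1.63%) remained under the control shRNA, 1 (0.407%) under U2AF1 knockdown and 12 (4.88%) under DHX9 knockdown. The share of all protein-coding genes was then 8.05%, 6.64% and 8.44%. At equal list lengths the DHX9 knockdown list therefore held more of the ZNF genes than the control list while the whole-genome shares were close. These counts are small and have no replicate error.

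None of the ZNF genes had a start-site peak in all 3 lists, a pattern found for 807 of all protein-coding genes (4.03%). A start-site peak in the DHX9 knockdown list alone was the commonest pattern among the genes with a peak (17 genes, 6.91%, against 10.1% of all protein-coding genes). Another 6 genes (2.44%, against 5.49%) had a peak in the control and DHX9 knockdown lists, 2 (0.813%, against 2.66%) in the control list alone and 1 (0.407%, against 1.38%) in both knockdown lists. The remaining 220 genes (89.4%, against 75.1% of all protein-coding genes) had a start-site peak in no list.

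Peak strength is given as a percentile within each list, the share of the list's peaks with the same or lower fold enrichment. Fold enrichment is the ratio deposited by the authors, its background is not stated, and it cannot be compared between lists. In the control list the 8 start-site peaks ran from percentile 14.5 to 76.2 with a median of 37.7, and 3 of them lay above the midpoint of the list. The median over all protein-coding genes with a peak was 54.3, that of the other chromosome 19 genes 63.1 and that of ZNF genes elsewhere 61.4. The 24 genes of the DHX9 knockdown list ran from 6.77 to 91.9 with a median of 54.6. The median of all protein-coding genes there was 54.5, that of the other chromosome 19 genes 59.1 and that of ZNF genes elsewhere 43.6. The order of the control and DHX9 knockdown medians of the ZNF genes depended on the setting. With peaks of a −log10 q of at least 5 they were 55.3 and 53.0, with lists of equal length 49.5 and 33.6, and without genes near a start of another gene 45.3 and 33.0.

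**Figure D2:**
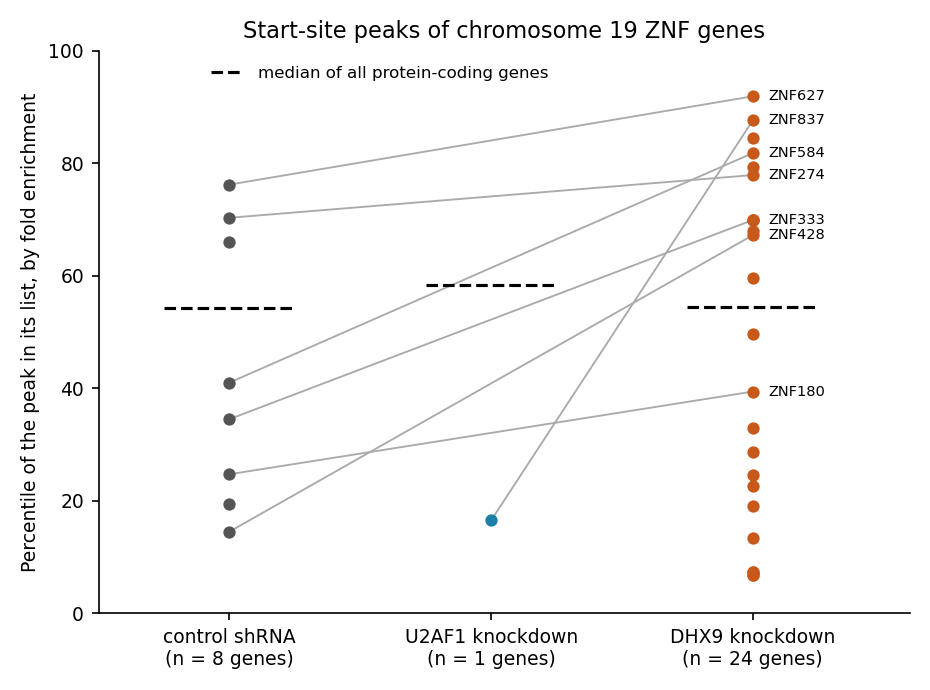
Within-list percentile by fold enrichment (vertical axis, 0 to 100) of the highest start-site peak of each ZNF gene of chromosome 19 in the 3 lists; a point is a gene, grey lines join the same gene in 2 lists and dashed bars are the median of all protein-coding genes with a peak. The 6 genes of both the control and DHX9 knockdown lists all sit higher in the latter, and ZNF837 moves from 16.5 in the U2AF1 knockdown list to 87.6.

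The 6 genes found in the control and DHX9 knockdown lists were ZNF627, ZNF333, ZNF428, ZNF180, ZNF274 and ZNF584. The control and DHX9 knockdown peaks of each overlapped. ZNF627 (chr19:11559374-11619161, plus strand), a KRAB-like gene of 11 fingers in cluster 3, had the highest of these peaks. The deposited fold enrichment was 5.17 under the control shRNA (percentile 76.2, rank 657 of 2757) and 8.41 under DHX9 knockdown (percentile 91.9, rank 361 of 4443). The summits lay 61 and 72 bp downstream of a start in the 5′ untranslated region, 11 bp apart. A second control peak, at percentile 39.8, lay 217 bp upstream of another ZNF627 start and within 1000 bp of a start of the transcription elongation factor gene ELOF1, so its polymerase cannot be assigned to either gene. ZNF274 (chr19:58183029-58213562, plus strand) encodes a KRAB protein known to bind the 3′ ends of other zinc finger genes and to bring in SETDB1. It had a fold enrichment of 4.86 in the control list (percentile 70.3) and 6.63 in the DHX9 knockdown list (percentile 77.9), and its summits lay 213 bp apart.

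ZNF584 (chr19:58401504-58431736, plus strand) was at percentile 41.0 under the control shRNA and 81.8 under DHX9 knockdown, with summits 2 bp apart. A second peak of the DHX9 knockdown list, at percentile 53.3, lay by another start of ZNF584. ZNF333 (chr19:14689801-14733746, plus strand) was at percentile 34.5 under the control shRNA and 69.9 under DHX9 knockdown, and a start of ADGRE3 lay within 1000 bp of both summits. ZNF180 (chr19:44474428-44500524, minus strand) was at percentile 24.7 under the control shRNA and 39.4 under DHX9 knockdown. ZNF428 (chr19:43607224-43619629, minus strand), which encodes a single finger and no KRAB-like motif, went from percentile 14.5 in the control list, the lowest of the 8 ZNF genes there, to 67.2 in the DHX9 knockdown list. Its control summit lay 11 bp downstream of the start and its DHX9 knockdown summit 172 bp upstream. All 6 genes stood at a higher percentile in the DHX9 knockdown list, by 7.56 to 52.6 points. The lists differ in length, so a percentile is a place within each list and shows no change in occupancy. The same count over all protein-coding genes in both lists is not given here, so the rise cannot be called particular to ZNF genes.

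ZNF714 and ZNF460 had a peak in the control list alone. ZNF714 (chr19:21082159-21125270, plus strand), a KRAB-like gene of 12 fingers, stood at percentile 66.0 with its summit 24 bp downstream of a start. ZNF460 (chr19:57280051-57294069, plus strand) stood at percentile 19.4 with its summit 138 bp upstream of a start and near its antisense gene ZNF460-AS1. The strand of the polymerase is not recorded in ChIP-seq, so a gene and its divergent or antisense neighbour cannot be told apart. ZNF837 (chr19:58367618-58381030, minus strand) was the single ZNF gene at a start in the U2AF1 knockdown list. There it stood at percentile 16.5 with a fold enrichment of 3.46 and a −log10 q of 2.50, and in the DHX9 knockdown list at percentile 87.6 with a fold enrichment of 7.59 and a −log10 q of 12.8. Both summits lay in an intron, 256 and 170 bp downstream of the start. It has 8 fingers and no KRAB-like motif.

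Among the 17 genes of the DHX9 knockdown list alone, the highest peaks were those of ZNF557 (percentile 84.4), ZNF574 (79.4), ZNF565 and ZNF146 (69.9, the same peak) and ZNF497 (67.9). ZNF557 (chr19:7069703-7087968, plus strand) had its summit 98 bp upstream of its start, within 1000 bp of a start of MBD3L3. ZNF574, a gene of 18 fingers without a KRAB-like motif, had its summit 426 bp upstream of an internal start, the farthest from a start of the 24. ZNF565 and ZNF146 are transcribed in opposite directions, and their shared summit lay 90 bp upstream of a start of ZNF565 and 65 bp downstream of a start of ZNF146. ZNF146 encodes a protein made almost wholly of fingers. ZNF540 and ZNF571 likewise shared a peak, at percentile 7.38. The 24 genes of this list hence rested on 22 distinct peaks.

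The other genes of the DHX9 knockdown list alone stood lower. ZNF8 was at percentile 59.6, ZNF529 at 49.7, ZNF414 at 33.0, ZNF324B at 28.6, ZNF773 at 24.6 and ZNF780A at 22.6. ZNF526, whose start lies beside that of DEDD2, was at 19.1, and ZNF264 was at 13.4. The lowest were ZNF587B and ZNF324, both at 6.77 with a fold enrichment of 3.42 and a −log10 q of 1.81. Ties at the same fold were common, so close percentiles do not order these genes. The best start-site peaks of the ZNF genes spanned a −log10 q of 2.37 to 11.0 under the control shRNA and 1.40 to 15.7 under DHX9 knockdown. With only peaks of a −log10 q of at least 5, 4, 0 and 15 ZNF genes (1.63%, 0% and 6.10%) were left under the control shRNA, U2AF1 knockdown and DHX9 knockdown, against 9.16%, 3.92% and 14.0% of all protein-coding genes.

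Summits lay close to the annotated starts. All 8 control summits and 23 of the 24 DHX9 knockdown summits were within 250 bp of a start, with median positions of -53.5 bp (negative is upstream) and 2.00 bp. In the DHX9 knockdown list 12 summits were downstream and 12 upstream or at the start, and in the control list 4 and 4. By annotation, 8 of the 24 summits of the DHX9 knockdown list fell in a 5′ untranslated region, 6 in an intron, 3 in an exon of another transcript and 7 upstream of the gene. Over all protein-coding genes the median summit was 18.0 bp downstream under the control shRNA and 14.0 bp downstream under DHX9 knockdown. Among control peaks the median width was 292 bp at ZNF starts and 319 bp over the list, and among DHX9 knockdown peaks it was 287 bp and 324 bp.

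**Figure D3:**
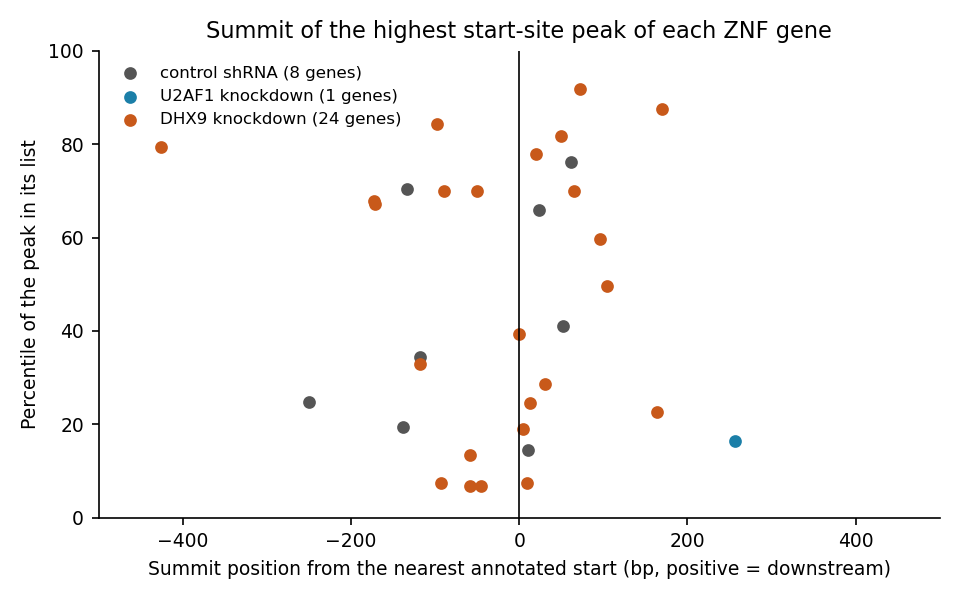
Position of the summit relative to the nearest annotated transcript start in bp (horizontal axis, positive is downstream) against the percentile of the peak in its list (vertical axis) for the highest start-site peak of each ZNF gene of chromosome 19, coloured by list. All points lie between 426 bp upstream and 256 bp downstream, though the rule allowed 1000 bp.

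Some peaks could not be assigned to a single gene. For 13 of the 24 genes of the DHX9 knockdown list a start of another gene lay within 1000 bp of the summit, and for 2 of 8 in the control list. Of all 246 genes, 117 (47.6%) have a start within 1000 bp of a start of another gene, close to the 43.6% of all protein-coding genes, 46.4% of the other chromosome 19 genes and 50.4% of ZNF genes elsewhere. Among the 117, 15 (12.8%) had a peak in the DHX9 knockdown list, and among the other 129, 9 (6.98%) did. The corresponding shares over all protein-coding genes were 29.9% and 14.1%. In the control list 4 ZNF genes of each kind had a peak, 3.42% of 117 and 3.10% of 129. The control shares over all protein-coding genes were 18.7% and 7.92%. In both kinds the ZNF genes of chromosome 19 had lower shares than all protein-coding genes. Other chromosome 19 genes not near another start had 5.92% under the control shRNA and 10.5% under DHX9 knockdown. Their intervals (4.36 to 7.99 and 8.36 to 13.0) overlapped those of the ZNF genes (1.21 to 7.70 and 3.71 to 12.7). Near another start, the intervals overlapped under DHX9 knockdown (16.6 to 23.1 and 7.93 to 20.1) but not under the control shRNA.

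Peaks were uneven along the chromosome. Cluster 8, from ZNF175 to ZNF331 at 51.6 to 53.6 Mb, held 39 of the genes, 38 of them with a KRAB-like motif, and no start-site peak in any list (0 of 39, which allows a share of up to 7.69%). Cluster 9, from ZNF628 to ZNF835, also had 0 of 16, a limit of 18.8%. Clusters 1 and 5, of 5 genes each, had 0, a limit of 60.0% that is rough for so few genes. The other protein-coding genes inside clusters 8 and 9 (15 and 23 genes) also had 0 start-site peaks in every list. Those inside cluster 9 include zinc finger genes of other names, such as ZSCAN5A and ZFP28. Over all other chromosome 19 genes the shares were 8.78%, 5.12% and 14.7% under the control shRNA, U2AF1 knockdown and DHX9 knockdown. A count of 0 in so few genes therefore cannot decide whether the lack of peaks was particular to the ZNF genes. Cluster 4, from ZNF101 to ZNF254 at 19.7 to 24.1 Mb, held 37 genes and a single start-site peak, that of ZNF714 in the control list. It had the lowest median CpG observed over expected of the 10 clusters (0.53). Its median share of 31-base words that occur once in the genome was also the lowest (85.7%). The part of either in the number of peaks was not tested. Clusters 2 and 3 had 1 gene each with a peak, ZNF414 of 13 genes and ZNF627 of 25. Cluster 7, of 23 genes, had ZNF428 and ZNF180. Cluster 6, from ZNF565 to ZNF573, had 5 of 26 genes in the DHX9 knockdown list on 3 distinct peaks, and none in the other lists.

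Cluster 10, from ZNF264 to ZNF446 at 57.2 to 58.5 Mb, near the end of the long arm, held the most genes with a peak among the clusters. Of its 43 genes, 3 (6.98%) had a start-site peak under the control shRNA, 1 (2.33%) under U2AF1 knockdown and 10 (23.3%) under DHX9 knockdown, 11 in all. Beside the shares over all protein-coding genes (12.6%, 6.64% and 21.0%), the first 2 were lower and the last was close. That closeness depended on how clusters were joined. At up to 250 kb the shares were the same. At up to 1000 kb the last cluster took in cluster 9 and held 59 genes. Its shares were then 5.08%, 1.69% and 16.9%, the last below 21.0%. With lists of equal length, ZNF264, ZNF773, ZNF587B, ZNF324B and ZNF324 were lost from the DHX9 knockdown list. The share of all protein-coding genes in that list was then 8.44%. Of the 22 other protein-coding genes inside cluster 10, 2, 0 and 2 had a start-site peak in the same order of lists. Within the cluster, 7 of 9 consecutive ZNF genes over 292 kb (chr19:58183029-58475436) had a peak in at least 1 list. They were ZNF274, ZNF8, ZNF497, ZNF837, ZNF584, ZNF324B and ZNF324, and the exceptions were ZNF544 and ZNF132. All 7 had a peak in the DHX9 knockdown list, ZNF274 and ZNF584 also in the control list and ZNF837 also in the U2AF1 knockdown list. Over all protein-coding genes, 75.1% had a start-site peak in no list. With only peaks of a −log10 q of at least 5, ZNF324B and ZNF324 were lost. The stretch of 9 genes was picked out after its values were seen. TRIM28 starts 62.8 kb beyond ZNF446, the last gene of the cluster. Of the 14 ZNF genes outside clusters, 1 (7.14%) had a start-site peak under the control shRNA, 0 under U2AF1 knockdown and 5 (35.7%) under DHX9 knockdown. Against the same backgrounds of 12.6%, 6.64% and 21.0%, the last was higher, and it rests on few genes.

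**Figure D4:**
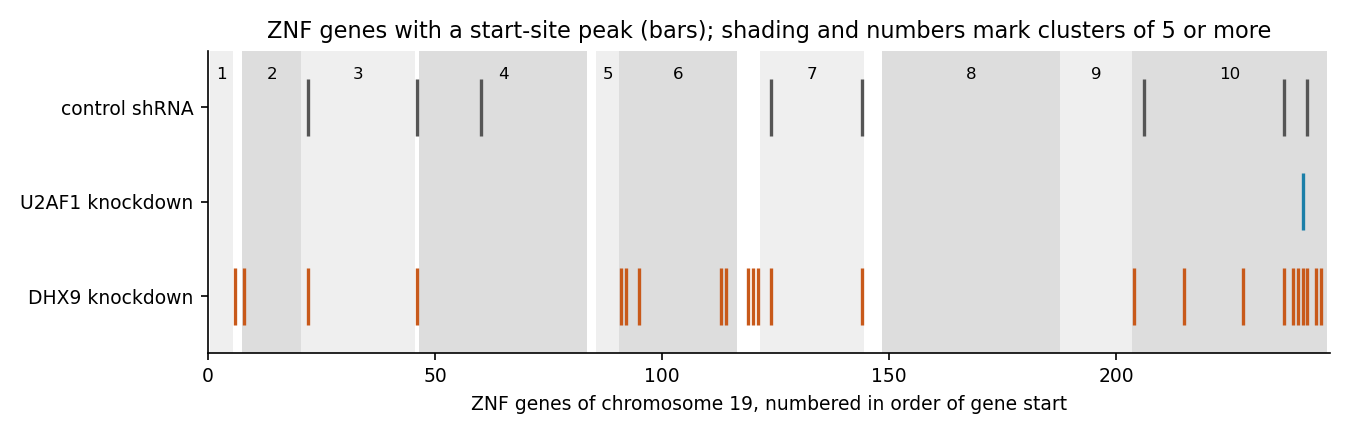
The 246 ZNF genes in order along chromosome 19 (horizontal axis, gene number and not distance), with a bar for each gene with a start-site peak in each of the 3 lists and shading for the 10 numbered clusters of 5 or more genes. Cluster 8 has no bar in any row, and the bars of the DHX9 knockdown list crowd at the right end of cluster 10.

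Sequence features that played no part in choosing the genes were set beside the peaks. The 26 genes with a start-site peak in any list had a median CpG observed over expected of 0.80 around the start and the other 220 had 0.70. A ratio of at least 0.6 was found in 23 of 26 (88.5%) and 171 of 220 (77.7%). Over all protein-coding genes 66.3% reached that ratio, and 56.8% of the other chromosome 19 genes did, against 78.9% of the ZNF genes. The ZNF genes of other chromosomes stood at 82.1%. At starts with a ratio of at least 0.6, peaks were found for 3.61% of ZNF genes under the control shRNA, 0.515% under U2AF1 knockdown and 11.3% under DHX9 knockdown. The corresponding shares were 18.1%, 9.63% and 30.2% of all protein-coding genes and 15.8%, 9.30% and 33.0% of ZNF genes on other chromosomes. At the 52 ZNF starts with a lower ratio the shares were 1.92%, 0% and 3.85%, on 1, 0 and 2 genes. They were close to the 1.79%, 0.769% and 2.78% of all protein-coding genes with such starts. Those of ZNF genes on other chromosomes were 0%, 0% and 10.6%. The lower share of ZNF genes was thus seen at starts with the higher ratio. The part of CpG content in the shares was not tested.

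Repeated sequence can lower the number of uniquely placed reads, and recently duplicated genes share sequence. Uniqueness was measured as the share of 31-base words around a start that occur once in the genome. The median was 100% for ZNF genes with a peak and 98.7% for those without, and in 190 of the 246 genes at least 90% of words were unique. Among these 190, peaks were found for 3.68%, 0.526% and 11.1% in the same order of lists. The other chromosome 19 genes with such starts had 10.2%, 5.78% and 16.8%. In the DHX9 knockdown list the intervals of these shares overlapped (7.34 to 16.3 and 14.6 to 19.3). They also overlapped there without regard to uniqueness (6.64 to 14.1 and 12.8 to 16.8). At the unique starts they did not overlap under the control shRNA (1.80 to 7.41 and 8.46 to 12.3) or U2AF1 knockdown (0.0930 to 2.92 and 4.48 to 7.43). The part of repeated sequence in the low share was not tested. How reads with several matches were treated is not given in the sources used here.

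Genes with and without a peak differed in the share that encoded a KRAB-like motif, which is given without a test. It was found in 18 of 26 (69.2%) and in 192 of 220 (87.3%) without a peak. In the DHX9 knockdown list a start-site peak was found for 16 of 210 genes with the motif (7.62%, 4.74 to 12) and for 8 of 36 without it (22.2%, 11.7 to 38.1), and the intervals overlap slightly. In the control list the counts were 6 (2.86%) and 2 (5.56%), and the intervals overlap widely. The 8 genes without the motif were ZNF414, ZNF146, ZNF574, ZNF526, ZNF428, ZNF180, ZNF497 and ZNF837. Each call rests on the protein of 1 transcript, the canonical one, so a gene such as ZNF180 may have the motif in another isoform. Median finger number was 10.5 with a peak and 13.0 without. The G minus C skew of the 500 bp downstream of the start, a sequence property tied to R-loops, had a median of 0.07 with a peak and 0.06 without.

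**Figure D5:**
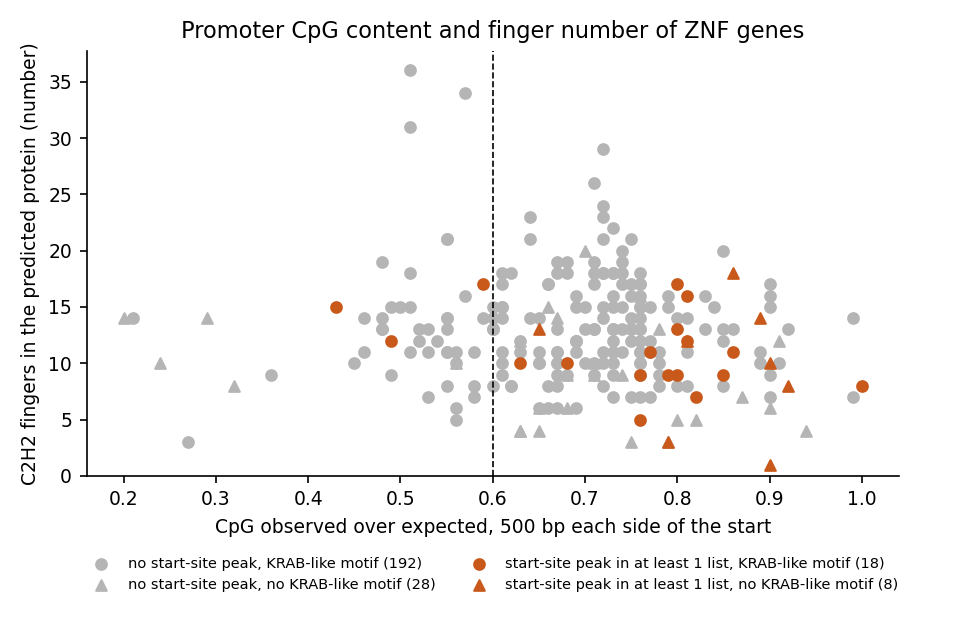
CpG observed over expected within 500 bp of the start (horizontal axis, dashed line at 0.6) against the number of C2H2 fingers in the translated protein (vertical axis) for the 246 ZNF genes of chromosome 19; orange points have a start-site peak in at least 1 list, and triangles lack a KRAB-like motif. Of the 26 orange points, 23 have a ratio of at least 0.6 and 8 are triangles.

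RefSeq promoters, from 250 bp before to 50 bp after the start, were matched for 216 of the 246 genes. The ETS motif CCGGAAG, on either strand, was in 98 of them (45.4%), against 14.4% of 15345 protein-coding promoters and 10.3% of all 35116 promoters of the table. It was about as frequent in the 25 matched genes with a peak (48.0%) as in the 191 without (45.0%). The CCAAT box was in 53.7% of ZNF promoters and 36.6% of protein-coding promoters, and the GC box GGGCGG in 67.6% and 59.2%. The TATA motif TATAAA was in 1.85% of ZNF promoters and in 9.63% of protein-coding promoters. The NRF1 core GCATGCGC (4.17%), the YY1 motif AAGATGGCG (3.70%), TCTCGCGA (1.39%) and the ZNF143 core ACTACAATT (1.39%) were rare, and their protein-coding shares were 4.25%, 2.80%, 1.80% and 0.482%. ZNF180, printed above, was the single ZNF gene with both a peak and the ZNF143 core. Overlapping motifs were each counted, and paralogous promoters share descent.

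Genes for the machinery through which KRAB proteins act were looked up in the same lists. Of 15 genes for KRAB co-repressors and their partners, 4 (26.7%, 10.9 to 52.0) had a start-site peak under the control shRNA. The counts were 3 (20.0%, 7.05 to 45.2) under U2AF1 knockdown and 6 (40.0%, 19.8 to 64.3) under DHX9 knockdown. The shares over all protein-coding genes were 12.6%, 6.64% and 21.0%. The first and last of these lie inside the intervals, and 6.64% lies just below its interval. TRIM28, the co-repressor bound by KRAB domains, had one in all 3, at percentiles 86.6, 87.1 and 96.7. PPHLN1, a subunit of the HUSH silencing complex, was at 24.7, 53.9 and 71.6. CBX3, an HP1 protein, was at 62.1 under the control shRNA and 47.4 under DHX9 knockdown, and CBX5, another HP1 protein, was at 76.9 in the control list alone. UHRF1, which recruits the maintenance DNA methyltransferase, was found in the U2AF1 knockdown list alone, at 60.6. DNMT1, that methyltransferase, MORC2, a partner of HUSH, and TASOR, its scaffold, were found in the DHX9 knockdown list alone, at 17.6, 25.2 and 38.8. Some of these summits lay far from the start (negative is upstream). They were at -447 bp (control) and -481 bp (DHX9 knockdown) for CBX3, -663 bp for CBX5 and -574 bp for MORC2. Neighbouring starts are not given for these genes, so that polymerase may belong to another gene.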

How the data were processed

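POLR2A ChIP-seq of HEK293T cells was used as 3 deposited narrowPeak lists, 1 for each condition. The submitters' processing notes name Bowtie2 2.4.5, MACS2 2.2.7.1, deepTools 3.5.1 and hg38, with no roles. Fold enrichment is the authors' deposited ratio, and the significance of each peak is the authors' deposited −log10 of its p-value and q-value. The background, read filters, pooling of replicates and depth are not given in the sources used here.

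Every sequence named in the lists exists in hg38, and 0 peaks ended beyond its length. With Python 3.11.15, summits were placed within 1000 bp of GENCODE version 44 transcript starts or inside genes, and the highest peak per gene was ranked within its list. Placement was tested on simulated peaks. KRAB-like motifs and C2H2 fingers were searched in the translated canonical coding sequences, the former with a pattern adjusted on these proteins without regard to peaks. Each condition has 1 list, so no test was made. The genes and lists were chosen with earlier results of these data known. Genes were named by pattern of lists, the 5 highest per pattern in full, and all 26 were then named after their values were seen. Other windows, thresholds, list lengths, start sets and gene rules were tried.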

Additional observations from a re-analysis of the deposited data

How the results depend on the processing

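Start-site windows of 500 and 2000 bp, placing peaks by any base and adding the other zinc finger names of the chromosome left the same 8, 1 and 24 genes under the control shRNA, U2AF1 knockdown and DHX9 knockdown. Settings that keep fewer peaks moved the shares, by construction. Keeping peaks with −log10 q of 5 or more, the share was 1.63%, 0% and 6.10%, both for start-site peaks and for any peak. Cutting every list to its 1730 peaks of highest significance, it was 1.63% in the control list and 4.88% in the DHX9 knockdown list, again for both. Of the 98 values recomputed under another setting, these 10 left the 95% counting interval of the main value. The other 88 stayed inside it or, for median percentiles, inside the SD over genes, which are wide tolerances. Among them the DHX9 knockdown minus control difference fell from 6.50 to 3.25 points and the U2AF1 knockdown minus control difference went from -2.85 to -1.22 points at equal list lengths. The median percentile ranged from 28.8 to 55.3 under the control shRNA, and from 33.0 to 55.3 under DHX9 knockdown, where it was 39.4 with the 5′ end of the gene alone. Starts of protein-coding transcripts lost ZNF584 from the control list, and the 5′ end of the gene alone lost 5 genes from the DHX9 knockdown list. No paired analysis was possible because the peaks of a condition stand in a single list without replicates, and for the same reason leaving out a replicate was not run. The unknown depth limits how many weak peaks each list can hold, and a gene without a peak may still hold polymerase.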
